A study of Mus musculus with 10 samples.

Results

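The cortical hem (CH) of mouse embryos was examined for a small set of genes whose products attach cells to the basement membrane, namely the laminin-binding integrin subunits *Itga3*, *Itga6*, *Itga7*, *Itgb1* and *Itgb4*, the laminin receptor dystroglycan (*Dag1*) and the extracellular linkers nidogen-1 (*Nid1*), nidogen-2 (*Nid2*), perlecan (*Hspg2*) and agrin (*Agrn*). These 10 genes were chosen by name from the 52227 genes of the count table, with earlier results of these data known. CH, the signaling center at the medial edge of the cortical neuroepithelium, was laser captured at e13.5 from 5 wild-type and 5 *Lmx1a*-/- embryos, and the captured sections of each embryo were pooled into 1 library. *Lmx1a*-/- embryos carried 2 copies of the drJ allele, a point mutation that abolishes Lmx1a function in every tissue that expresses the gene but leaves protein that can be stained. Both genotypes came from the same mixed stock, to which C57Bl6, FVB and CD1 mice contributed, and no sample was treated.

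Laminins form a sheet on the cell surface that is held by integrins, which are dimers of an alpha and a beta subunit, and by dystroglycan. Nidogens bridge the laminin sheet to the collagen IV network, and perlecan and agrin are heparan sulfate proteoglycans that tie laminin to its receptors and to other matrix proteins. In the embryonic cortex these receptors anchor the endfeet of radial glia to the basement membrane under the meninges, and loss of beta1 integrin or of glycosylated dystroglycan is known to break that membrane and disturb cell migration.

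Libraries held 19145952 to 36462780 counts. *Lmx1a* transcripts were present in all 10 libraries and were 114 ± 21.0 normalized CPM (counts scaled by TMM-adjusted library size) in *Lmx1a*-/- against 71.2 ± 18.2 in wild type (SD, n = 5 each), which checks no deletion since the allele is a point mutation. The summed level of 13 CH markers was 2295 to 4364 CPM in wild type and 2766 to 3914 in *Lmx1a*-/-, and wild-type embryo 3 had the lowest sum. The 13 include *Lmx1a*, and their median log2 fold change was -0.41. At a false discovery rate under 0.1, 5 were lower and 1 higher in *Lmx1a*-/-, beside 2.29% and 1.72% of all genes. The sum is therefore not a measure of capture apart from genotype. *Xist* was at 4399 to 5169 CPM in wild-type embryos 2 to 5 and at 1.15 CPM or less in wild-type embryo 1 and all *Lmx1a*-/- embryos, where *Uty*, *Kdm5d*, *Eif2s3y* and *Ddx3y*, all on the Y chromosome, were detected instead. Apart from wild-type embryo 1, sex and genotype therefore cannot be told apart. Transcripts of epidermis, which is not part of CH, were unevenly spread: 10 epidermal genes summed to 1760 CPM in wild-type embryo 4, to 54.3 to 224 CPM in the other wild-type libraries and to 10.5 to 152 CPM in *Lmx1a*-/-. Hemoglobin and other red blood cell genes summed to 643 to 1489 CPM in wild type and 268 to 581 CPM in *Lmx1a*-/-, and neuroepithelial genes to 1835 to 2779 and 3073 to 3922 CPM, with no overlap of the genotypes in either list.

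Upstream windows of 250 bases were available for 6 of the 10 genes (*Agrn*, *Dag1*, *Hspg2*, *Itga3*, *Itgb1* and *Nid1*), in 9 windows from RefSeq on GRCm38.p6. 2 of them are printed because the genes lay on opposite sides: *Itgb1* was lower in every *Lmx1a*-/- library than in any wild-type library, and *Agrn* had the higher mean in *Lmx1a*-/-. The *Itgb1* window is chr8:128685404-128685653 on the plus strand, and the *Agrn* window, at the more upstream of its 2 annotated starts, is chr4:156197489-156197738 on the minus strand. Both are given in the direction of transcription, and capitals mark GC boxes, GGGCGG on either strand, with overlapping matches run together.
Itgb1: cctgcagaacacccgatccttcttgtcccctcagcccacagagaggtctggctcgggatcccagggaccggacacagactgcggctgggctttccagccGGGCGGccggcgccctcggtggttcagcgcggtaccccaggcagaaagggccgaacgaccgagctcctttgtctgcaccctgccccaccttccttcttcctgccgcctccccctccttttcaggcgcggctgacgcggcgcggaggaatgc
Agrn: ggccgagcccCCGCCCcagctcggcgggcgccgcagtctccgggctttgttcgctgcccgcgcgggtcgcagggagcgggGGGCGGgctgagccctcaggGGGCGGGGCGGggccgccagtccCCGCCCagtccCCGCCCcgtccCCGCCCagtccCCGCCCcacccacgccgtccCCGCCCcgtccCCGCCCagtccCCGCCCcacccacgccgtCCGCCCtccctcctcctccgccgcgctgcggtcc
The *Itgb1* window was 68% G and C with 1 GC box, and the *Agrn* window 83.6% with 12. All 9 windows held at least 1 GC box, against 32.7% of 32851 promoter windows of the same length. The 9 come from 6 genes and are not independent, since the 2 *Dag1* windows overlap and hold the same 3 GC boxes. None of the 9 held TAATTA, a core bound by many homeodomain proteins, which 4.84% of all windows held.

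Of the 10 genes, 9 reached the minimum of 10 counts in at least 3 libraries and were tested. In *Lmx1a*-/- CH only *Itga6* passed the threshold of a false discovery rate (FDR) under 0.1 in edgeR's quasi-likelihood test, in the lower direction, where 2.29% of all 21664 genes tested were called lower and 1.72% higher. 7 of the 9 had a negative log2 fold change and the median of the 9 was -0.31, beside 50.6% negative and a median of -0.0049 over all genes. 7 of the 9 had an unadjusted p under 0.05, *Agrn* in the higher and the other 6 in the lower direction, as did 16.4% of all genes. *Itgb1* alone had ranges that did not overlap between the genotypes, and 2.27% of all genes lay with all wild-type libraries above all *Lmx1a*-/- libraries. DESeq2, the other tool run on the same counts, called 6 of the 9 lower (*Itga3*, *Itga6*, *Itgb1*, *Itgb4*, *Dag1* and *Hspg2*) and none higher, where it called 4.40% of all genes lower. In whole captured tissue, fewer cells of a type and less RNA per cell cannot be told apart, here and in all values that follow. The levels of the 10 genes in each library are plotted by genotype.

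**Figure D1:**
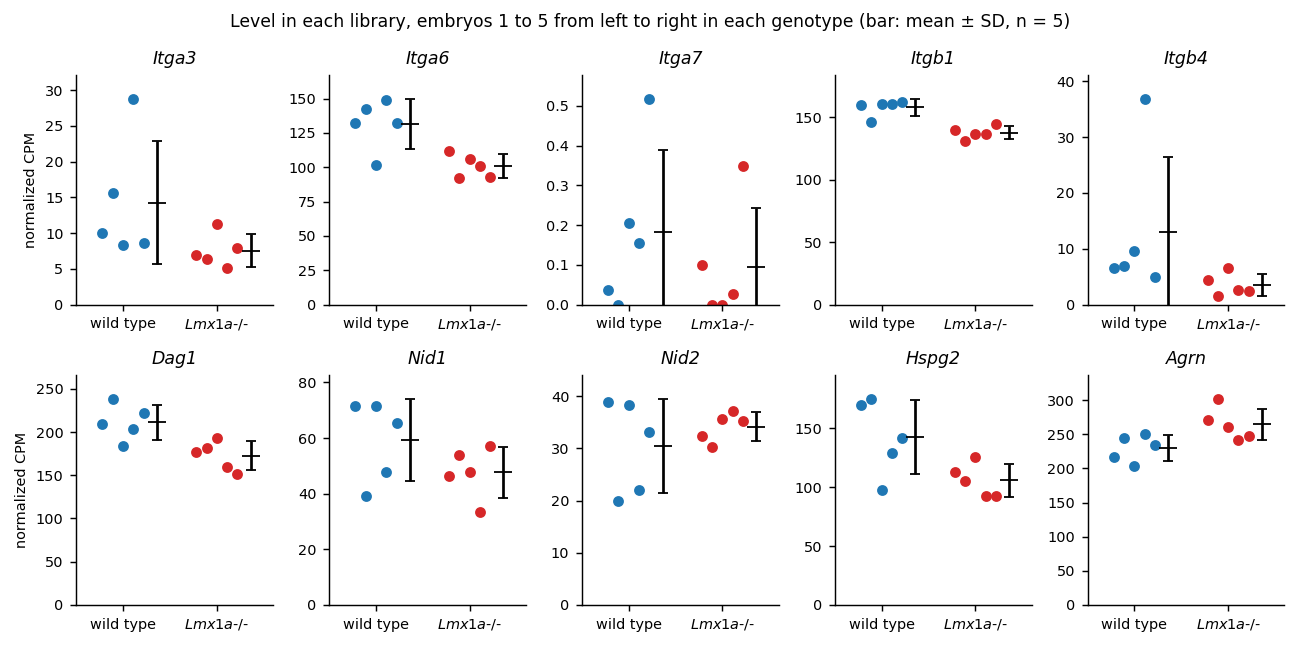
Levels of the 10 genes in normalized CPM (vertical axes, from 0 and scaled to each gene). Points are libraries, embryos 1 to 5 from left to right, with wild type in blue and *Lmx1a*-/- in red, and bars show mean ± SD (n = 5), cut at 0 for *Itga7* and *Itgb4*. The points of *Itgb1* do not overlap between genotypes, and wild-type embryo 4 stands far above the other libraries for *Itgb4* and *Itga3*.

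*Itga6* (chr2:71745616-71858416, plus strand, GRCm38) encodes the alpha6 subunit, which pairs with the beta1 or the beta4 subunit to bind laminin. Its level was 133, 143, 101.6, 149 and 132 normalized CPM in wild-type embryos 1 to 5 and 112, 91.9, 106, 101 and 92.6 CPM in *Lmx1a*-/- embryos 1 to 5. Wild-type embryo 3 lay among the *Lmx1a*-/- libraries, and the other 4 wild-type libraries lay above all of them. The means were 132 ± 18.1 and 101 ± 8.67 CPM, with a log2 fold change of -0.38 ± 0.10 (SE) and FDR = 0.0744 in edgeR's quasi-likelihood test. The call depended on single libraries. It held in 3 of the 10 fits that left out 1 library, those without wild-type embryo 3 (FDR = 0.0103), *Lmx1a*-/- embryo 1 or *Lmx1a*-/- embryo 3, and was lost without any 1 of the other 7, with a log2 fold change between -0.47 and -0.34 and an FDR of at most 0.166 throughout. Wild-type embryo 1, whose sex matched that of the *Lmx1a*-/- embryos, stood above all of them. In the 6 libraries with Y-linked transcripts, where that embryo is the only wild-type library, the log2 fold change was -0.40. With *Xist* as a covariate the log2 fold change of *Itga6* was -0.37 ± 0.18 (FDR = 0.562). With the choroid plexus markers as a covariate it was -0.14 ± 0.14 (FDR = 0.857).

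By the root mean square difference between log2 profiles over the 10 libraries, each centered on its own mean, the genes most like *Itga6* were *Slc25a37* (0.0972), a mitochondrial iron transporter, *Map3k1* (0.0991), a kinase of the stress-activated MAPK cascade, and *Actn4* (0.0996), an alpha-actinin that crosslinks actin, where the median over all genes was 0.447. *Actn4* is also 1 of the 22 tested genes of the integrin adaptors with group means of 122 CPM (wild type) and 99.5 CPM (*Lmx1a*-/-), without passing the test (FDR = 0.113).

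*Itgb1* (chr8:128685654-128733200, plus strand) encodes the beta1 subunit, the common partner of the alpha3, alpha6 and alpha7 subunits. It stood at 159, 146, 160, 161 and 163 CPM in wild type and at 140, 131, 137, 136 and 145 CPM in *Lmx1a*-/-. The lowest wild-type library was only just above the highest *Lmx1a*-/- library, and the spread within each genotype was small. The log2 fold change was -0.20 ± 0.062 (SE), and with FDR = 0.124 it did not pass the test. Across the fits that left out 1 library it stayed between -0.23 and -0.19. With covariates for choroid plexus or epidermal genes it was -0.20 ± 0.10 and -0.19 ± 0.081. In the 6 libraries with Y-linked transcripts, where wild-type embryo 1 is the only wild-type library, it was -0.22.

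*Itgb4* (chr11:115974709-116008412, plus strand) encodes the beta4 subunit of hemidesmosomes, the junctions that fix basal epidermal cells to their basement membrane. Its level was 6.53, 6.95, 9.68, 36.8 and 4.99 CPM in wild type and 4.39, 1.47, 6.51, 2.63 and 2.37 CPM in *Lmx1a*-/-. Wild-type embryo 4 was far above every other library, and the rest of the 2 genotypes overlapped. The log2 fold change of -1.89 ± 0.55 had FDR = 0.105. Without wild-type embryo 4 it shrank to -1.02 ± 0.37 (FDR = 0.226).

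*Itga3* (chr11:95044474-95076801, minus strand), the alpha3 subunit, a further laminin receptor of epithelia and of migrating cortical neurons, had the same high library. It measured 9.97, 15.6, 8.38, 28.7 and 8.61 CPM in wild type and 6.95, 6.41, 11.3, 5.15 and 7.97 CPM in *Lmx1a*-/-, and the ranges overlapped. The log2 fold change was -0.91 ± 0.34 (FDR = 0.189) with all libraries and -0.50 ± 0.25 (FDR = 0.405) without wild-type embryo 4.

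Both genes were highest in wild-type embryo 4 and, among *Lmx1a*-/- libraries, in embryo 3. So were the epidermal genes, as the plot of each against the markers of other tissues shows. *Itga3* did not follow them throughout. Wild-type embryo 3 had the lowest wild-type *Itga3* level (8.38 CPM) at 193 CPM of epidermal genes. *Krt5*, a keratin of basal epidermis, was at 378 CPM in wild-type embryo 4, 11.2 to 43.4 CPM in the other wild-type libraries and 0 in *Lmx1a*-/- embryos 2 and 4, where its partner *Krt14* was also 0. 1 of the 10 epidermal genes was called lower in *Lmx1a*-/- and none higher, where 2.29% of all genes were called lower. All 10 had negative log2 fold changes. With the mean of the epidermal genes as a covariate, added after the values were seen, the log2 fold change of *Itgb4* became -0.26 ± 0.29 and that of *Itga3* -0.05 ± 0.29, while that of *Itga6* was -0.26 ± 0.12.

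**Figure D2:**
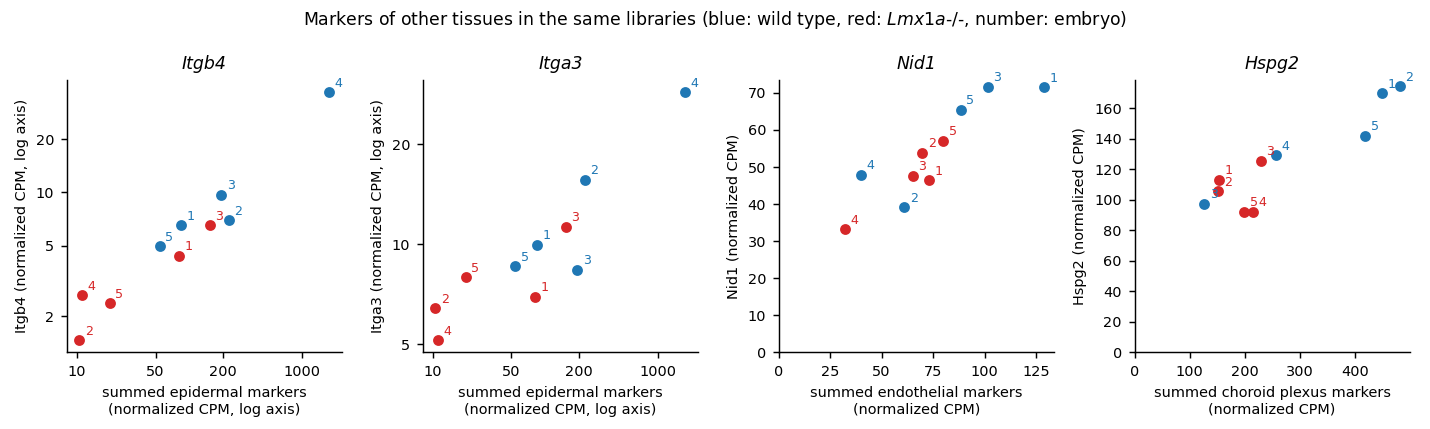
Level of *Itgb4* and *Itga3* against the summed epidermal genes (log axes), of *Nid1* against the summed endothelial genes and of *Hspg2* against the summed choroid plexus genes (linear axes from 0), all in normalized CPM. Each point is 1 library, numbered by embryo, with wild type in blue and *Lmx1a*-/- in red. Wild-type embryo 4 lies at the upper right of both epidermal plots, at 1760 CPM of epidermal genes and 36.8 CPM of *Itgb4*.

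*Itga7* (chr10:128933818-128958282, plus strand), the alpha7 subunit best known from skeletal muscle, was close to undetected. It had 39 counts over all 10 libraries, none in wild-type embryo 2 and *Lmx1a*-/- embryos 2 and 3, and at most 0.517 CPM in any library, and it was not tested.

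*Dag1* (chr9:108204634-108263958, minus strand) encodes both subunits of dystroglycan. Its level was 210, 238, 184, 203 and 222 CPM in wild type and 177, 181, 193, 160 and 151 CPM in *Lmx1a*-/-. Only wild-type embryo 3 and *Lmx1a*-/- embryo 3 crossed over, each lying within the other genotype's range. The means of 211 ± 20.2 and 173 ± 16.8 CPM gave a log2 fold change of -0.29 ± 0.087 with FDR = 0.1097. It passed the threshold without wild-type embryo 3 (FDR = 0.0632) and without *Lmx1a*-/- embryo 3, and did not in the other 8 fits of this kind. With the choroid plexus genes as a covariate the log2 fold change was -0.13 ± 0.13 (FDR = 0.844).

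The nidogens had fold changes of opposite sign with all libraries, neither past the test. *Nid1* (chr13:13437551-13512269, plus strand) was at 71.5, 39.2, 71.6, 47.9 and 65.5 CPM in wild type and 46.5, 53.9, 47.7, 33.3 and 57.0 CPM in *Lmx1a*-/-. *Nid2* (chr14:19751265-19811787, plus strand) was at 38.9, 19.9, 38.3, 22.1 and 33.1 CPM in wild type and 32.4, 30.3, 35.6, 37.2 and 35.3 CPM in *Lmx1a*-/-. Wild-type embryos 2 and 4 were the low wild-type libraries for both genes, and neither gene separated the genotypes. The log2 fold changes of -0.31 ± 0.18 for *Nid1* (FDR = 0.416) and 0.16 ± 0.17 for *Nid2* (FDR = 0.695) did not pass the test. Both were negative with *Xist* as a covariate (-0.61 ± 0.30 and -0.18 ± 0.29). They were also negative in the 6 libraries with Y-linked transcripts (-0.59 and -0.19), of which only wild-type embryo 1 is wild type. Set against each other within a library, the 2 genes did differ between genotypes. The log2 ratio of *Nid2* to *Nid1* counts was -0.97 ± 0.094 in wild type and -0.46 ± 0.38 in *Lmx1a*-/- (SD, n = 5 each), and only *Lmx1a*-/- embryo 4 had more *Nid2* than *Nid1* counts (0.16). No wild-type ratio reached the lowest *Lmx1a*-/- ratio (-0.88 against -0.83), and the difference of 0.51 had p = 0.00794 in an exact two-sided permutation test, the smallest p that 5 against 5 libraries allow, and 0.0397 adjusted over the 5 ratios compared. The ratio of -0.88 was that of wild-type embryo 1, the only wild-type embryo with Y-linked transcripts. The other wild-type ratios lay between -1.12 and -0.90. *Lmx1a*-/- embryo 4 set part of the size: without it the difference was 0.36. The adjusted p was 0.0529 to 0.0595, above the threshold of 0.05, without wild-type embryo 1, 2, 4 or 5.

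Of 15 endothelial genes, edgeR's quasi-likelihood test called none, and 3 had an unadjusted p under 0.05 by it, as did 16.4% of all genes. 13 of the 15 had negative log2 fold changes and their median was -0.48, beside 50.6% negative and a median of -0.0049 over all genes. DESeq2 called 2 of the 15 lower, where it called 4.40% of all genes lower. The endothelial genes were above 0 in every library. Their sum was 129, 61.1, 101, 39.9 and 88.5 CPM in wild type and 73.1, 69.8, 64.996, 32.2 and 79.9 CPM in *Lmx1a*-/-. The 2 libraries with the lowest sums, wild-type embryo 4 and *Lmx1a*-/- embryo 4, had the lowest and the highest *Nid2* to *Nid1* ratio. With the endothelial genes as a covariate the log2 fold change of *Nid1* was -0.05 ± 0.12 and that of *Nid2* 0.39 ± 0.17. The exons of *Nid2* share 437 bases, 8.45% of their length, with *Rtraf* on the opposite strand, and the strand setting of the counting is not given in the sources used here. *Rtraf* was at 60.8 ± 8.97 CPM in wild type and 67.4 ± 5.89 in *Lmx1a*-/-, and its part in the *Nid2* values was not tested.

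The 2 proteoglycans also had fold changes of opposite sign. *Hspg2* (chr4:137468769-137570630, plus strand) was at 170, 175, 97.5, 129 and 142 CPM in wild type and 113, 106, 126, 92.2 and 92.2 CPM in *Lmx1a*-/-. Wild-type embryo 3 lay among the *Lmx1a*-/- libraries and the other wild-type libraries above all of them. The log2 fold change of -0.43 ± 0.15 had FDR = 0.155, and without wild-type embryo 3 it was -0.54 ± 0.12 with FDR = 0.0304. Of 12 choroid plexus genes tested, 3 were called lower, where 2.29% of all genes were. 11 of the 12 had negative log2 fold changes, and their median was -1.09. Choroid plexus genes summed to 449, 481, 126, 256 and 418 CPM in wild type and 154, 152, 229, 215 and 199 CPM in *Lmx1a*-/-. The 5 wild-type libraries stood in the same order for these genes as for *Hspg2*, and the *Lmx1a*-/- libraries did not. Of the defining choroid plexus genes, *Kl* was at 0 in wild-type embryo 2 and *Lmx1a*-/- embryo 2, *Kcne2* was at 0 in *Lmx1a*-/- embryos 2 and 4, and the rest were above 0 in every library. With the choroid plexus genes as a covariate the sign turned, to 0.05 ± 0.18 (FDR = 0.972). That covariate, a mean of log2 CPM, was 2.03 to 3.62 in wild type and 1.33 to 2.26 in *Lmx1a*-/-. Only wild-type embryo 3 lay within the *Lmx1a*-/- range, so the covariate is largely confounded with genotype, for the other genes too.

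*Agrn* (chr4:156165290-156197488, minus strand) was at 217, 245, 203, 250 and 234 CPM in wild type and 270, 301, 261, 242 and 247 CPM in *Lmx1a*-/-. 3 *Lmx1a*-/- libraries lay above all wild-type libraries and the other 2 within their range. The log2 fold change of 0.20 ± 0.081 did not pass the test (FDR = 0.229) and lay between 0.15 and 0.23 in the fits that left out 1 library. The log2 ratio of *Hspg2* to *Agrn* counts fell from -0.72 ± 0.30 in wild type to -1.33 ± 0.18 in *Lmx1a*-/-, a difference of -0.61 (p = 0.0159 in an exact two-sided permutation test, 0.0397 adjusted over the 5 ratios). The ranges met where wild-type embryo 3 and *Lmx1a*-/- embryo 3 had almost the same ratio (-1.06 against -1.05). The adjusted p stayed at 0.0397 without either of these embryos and was 0.0529 to 0.0595 without any 1 of the other 8.

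The other 3 ratios did not pass after adjustment, as the plot of all 5 shows. By this exact permutation test, *Itgb4* to *Itgb1* differed by -1.46 (p = 0.0556, adjusted 0.0926), *Itga3* to *Itga6* by -0.42 (p = 0.262, adjusted 0.327) and *Dag1* to *Itgb1* by -0.094 (p = 0.452, adjusted 0.452). The *Dag1* to *Itgb1* ratio overlapped over most of its range, from 0.20 to 0.70 in wild type and from 0.067 to 0.50 in *Lmx1a*-/-.

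**Figure D3:**
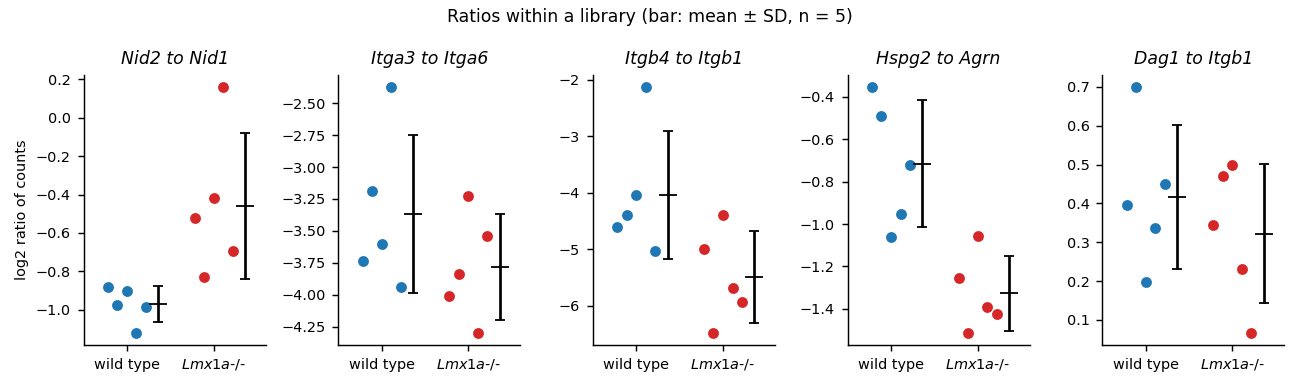
Log2 ratio of the counts of 2 genes within a library (vertical axes, each with its own range and none starting at 0), for 5 pairs of genes. Points are libraries, wild type in blue and *Lmx1a*-/- in red, with mean ± SD (n = 5). *Nid2* to *Nid1* is higher in all *Lmx1a*-/- libraries and in 4 of 5 *Hspg2* to *Agrn* is lower than in any wild-type library, while *Dag1* to *Itgb1* overlaps.

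Per kilobase of exon, the wild-type levels ran from *Itgb1* (38.7 ± 1.61 CPM per kilobase) and *Dag1* (33.2 ± 3.18) through *Agrn* (24.8 ± 2.12), *Itga6* (14.6 ± 2.01), *Hspg2* (9.97 ± 2.20), *Nid1* (8.52 ± 2.12), *Nid2* (5.88 ± 1.73), *Itga3* (2.50 ± 1.51) and *Itgb4* (1.85 ± 1.91) to *Itga7* (0.0226 ± 0.0253). Between neighbors in this order, the wild-type ranges failed to overlap at 3 steps, from *Dag1* to *Agrn*, from *Agrn* to *Itga6* and from *Itgb4* to *Itga7*. On this scale *Dag1* was at 27.1 ± 2.64 and *Agrn* at 28.5 ± 2.52 CPM per kilobase in *Lmx1a*-/-, where the ranges of the 2 genes overlapped.

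Leaving out wild-type embryo 3, which had the lowest CH and choroid plexus sums, or wild-type embryo 4, which had the highest epidermal sum, gave different calls, as the plot of fold changes by fit shows. Without embryo 3, *Itga6*, *Hspg2* and *Dag1* were called lower, and so were 2.66% of all genes tested in that fit. Without embryo 4 none of the 9 was called in either direction, where 1.73% of all genes were called lower, and *Itgb4* and *Itga3* went to -1.02 and -0.50 while *Itgb1* and *Dag1* moved by 0.02 or less.

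**Figure D4:**
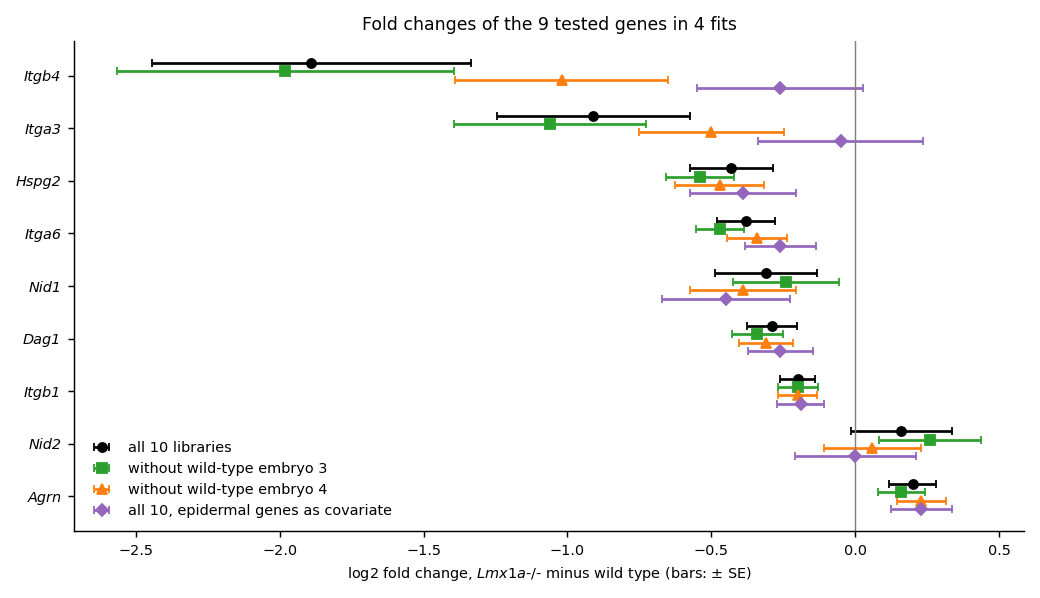
Log2 fold change of the 9 tested genes, *Lmx1a*-/- minus wild type (horizontal axis), with bars of ± SE, in the fit of all 10 libraries (black), without wild-type embryo 3 (green), without wild-type embryo 4 (orange) and with epidermal genes as a covariate (purple). *Itgb4* runs from -1.98 to -0.26 over these fits and *Itgb1* from -0.20 to -0.19.

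The ligands of these receptors were also measured. All 11 laminin chains were tested and all had negative log2 fold changes, with a median of -0.80. 4 were called lower and none higher, where 2.29% of all genes tested were called lower and 1.72% higher. *Lamc1*, the gamma chain of most laminins, fell from 182 ± 22.1 to 124 ± 11.04 CPM (log2 fold change -0.55 ± 0.094, FDR = 0.00840 by edgeR's quasi-likelihood test). *Lamb1*, its usual beta partner, fell from 80.9 ± 18.5 to 46.6 ± 6.93 CPM (-0.80 ± 0.15, FDR = 0.0136), and *Lama1*, an alpha chain of early embryonic basement membranes, from 41.8 ± 7.46 to 27.1 ± 4.08 CPM (-0.63 ± 0.14, FDR = 0.0329). In these 3 chains every wild-type library lay above every *Lmx1a*-/- library, as in 2.27% of all genes tested. The same held for 2 of 17 other basement membrane genes and 3 of 22 integrin adaptors tested, lists that follow below. *Lamc3* fell from 4.77 ± 2.77 to 1.62 ± 0.43 CPM (-1.55 ± 0.38, FDR = 0.0560). *Lamc1*, *Lamb1* and *Lama1* were called in all 10 fits that left out 1 library, and *Lamc3* in 6, not without wild-type embryo 1 or 5 or *Lmx1a*-/- embryo 2 or 5. None was called with the epidermal genes, the choroid plexus genes or *Xist* as a covariate. In these fits 0.679%, 0.0785% and 0.120% of all genes were called lower. With *Xist* the log2 fold changes were -0.55 (*Lamc1*), -0.89 (*Lamb1*), -0.93 (*Lama1*) and -2.42 (*Lamc3*). With the choroid plexus genes they were -0.42, -0.83, -0.34 and -0.42 in the same order.

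Of 17 other basement membrane genes, 3 were called lower and none higher, with a median of -0.21, beside 2.29% of all genes called lower. *Col4a1* and *Col4a2*, the collagen IV chains of nearly all basement membranes, had log2 fold changes of -0.97 ± 0.20 (FDR = 0.0253) and -0.94 ± 0.23 (FDR = 0.0514), and *Frem1*, an extracellular matrix protein of epithelial basement membranes, of -0.89 ± 0.23 (FDR = 0.0674). None of the 3 was called with the epidermal or the choroid plexus genes as a covariate, and with *Xist* only *Col4a1* was. These fits called 0.679%, 0.0785% and 0.120% of all genes lower. With the choroid plexus genes the log2 fold changes were -0.83 (*Col4a1*), -0.74 (*Col4a2*) and -0.85 (*Frem1*). With *Xist* they were -1.52, -1.37 and -0.68 in the same order. In the 10 fits that left out 1 library, *Col4a1* was called in all, *Col4a2* in 8, not without wild-type embryo 1 or *Lmx1a*-/- embryo 2, and *Frem1* in 5, not without wild-type embryo 1 or 4 (-0.66, FDR = 0.113) or *Lmx1a*-/- embryo 2, 4 or 5.

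Of 19 tested integrin subunits that are not laminin receptors in the usual sense, none was called lower and 1 higher, with a median of 0.033. Over all genes tested, 1.72% were called higher. *Itgb8*, a beta subunit that binds latent TGF-beta and is expressed by radial glia, rose from 133 ± 15.5 to 169 ± 11.4 CPM (0.35 ± 0.086, FDR = 0.0569), with the ranges overlapping at wild-type embryo 5. It was called in 5 of the 10 fits that left out 1 library. The call was lost without wild-type embryo 1, 2 or 4 (0.31, FDR = 0.121 without embryo 4) or *Lmx1a*-/- embryo 2 or 5. With the *Xist*, choroid plexus and epidermal covariates it was not called, in fits that called 1, 16 and 63 of all genes higher. The log2 fold change was 0.30 ± 0.16 with *Xist* and 0.49 ± 0.14 with the choroid plexus genes.

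Of 22 tested genes for adaptors that connect integrins to the cytoskeleton, 2 were called lower and none higher, with a median of -0.30. Over all genes tested, 2.29% were called lower. *Zyx*, zyxin of focal adhesions, fell from 41.8 ± 1.76 to 32.3 ± 4.03 CPM (-0.37 ± 0.098, FDR = 0.0712). *Plec*, plectin, which ties hemidesmosomes to keratin filaments, fell from 87.5 ± 33.8 to 49.5 ± 11.1 CPM (-0.82 ± 0.22, FDR = 0.0752) and was highest, at 146 CPM, in wild-type embryo 4. With the epidermal genes as a covariate the log2 fold change of *Plec* was -0.29 and that of *Zyx* -0.27, and neither was called. Neither was called with *Xist* (-0.53 and -0.34) or the choroid plexus genes (-0.75 and -0.21) as a covariate. Leaving out 1 library, *Plec* was called in 5 of 10 fits and *Zyx* in 3.

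On the dystroglycan side, 1 of 11 tested genes of the dystrophin-associated complex was called lower and none higher, with a median of -0.12. The share called lower over all genes was 2.29%. *Dtna*, alpha-dystrobrevin, fell from 16.9 ± 5.96 to 8.05 ± 1.34 CPM (-1.07 ± 0.24, FDR = 0.0410), with wild-type embryo 3, at 8.15 CPM, among the *Lmx1a*-/- libraries. The call was lost without wild-type embryo 1, with *Xist* as a covariate (-1.48, FDR = 0.212) and with the choroid plexus genes as a covariate (-0.17 ± 0.29, FDR = 0.919), and held in the other 9 fits that left out 1 library and with the epidermal covariate (FDR = 0.0955). Of 16 tested genes that glycosylate dystroglycan, none was called in either direction, by DESeq2 either, and the median was 0.012. 4 of the 16 had an unadjusted p under 0.05 by edgeR's quasi-likelihood test, as did 16.4% of all genes. The smallest p values were those of *B3galnt2* (0.30 ± 0.10, FDR = 0.163) and *Pomt1* (-0.35 ± 0.13, FDR = 0.173), enzymes that build the sugar chain to which laminin binds. Among the agrin receptor genes and the laminin receptor *Bcam*, 3 were tested and none was called by edgeR's quasi-likelihood test, though all 3 had an unadjusted p under 0.05 and *Dok7* was called lower by DESeq2 and by edgeR's newer setting. *Lrp4*, the agrin receptor, had a log2 fold change of 0.40 ± 0.15 (FDR = 0.184), and 0.52 (FDR = 0.0720) without wild-type embryo 4, where it was called higher. *Bcam* had a log2 fold change of -2.27 ± 0.76 (FDR = 0.150), was highest in wild-type embryo 4 at 42.1 CPM, and went to -0.47 ± 0.38 with the epidermal covariate. That of *Dok7*, an adaptor of the agrin receptor kinase, was -2.69 ± 0.90 (FDR = 0.150) at under 1 CPM in both genotypes.

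**Figure D5:**
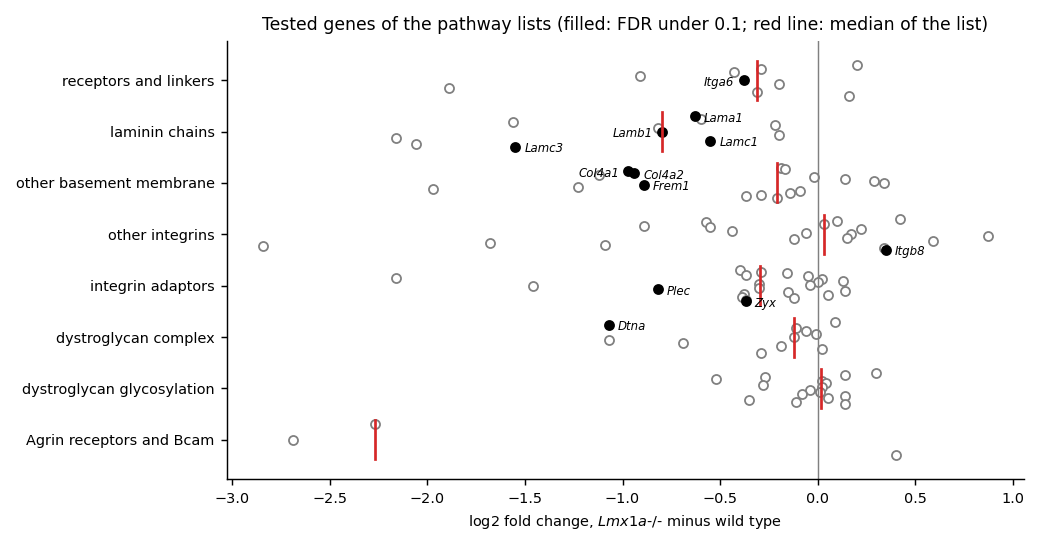
Log2 fold change, *Lmx1a*-/- minus wild type (horizontal axis), of every tested gene in 8 lists, 1 row per list. Filled points passed an FDR under 0.1 and are named, open points did not, and red lines mark the median of each list. The 4 filled laminin chains lie between -1.55 and -0.55 and the median of that list is at -0.80, and only *Itgb8* is filled to the right of 0.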

How the data were processed

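RNA from laser-captured CH was purified with a Pico Pure kit and made into libraries with a SMARTER mRNA-Seq kit. The authors checked read quality with FastQC 0.11.8, trimmed reads with Trimmomatic and aligned them to GRCm38 with STAR 2.7.1a. They deposited HTSeq 0.11.2 counts per gene, unfiltered and not normalized. The HTSeq strand setting is not given in the sources used here.

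The table had 52508 rows, of which 281 repeats were dropped. Genes for which 3 or more libraries had 10 or more counts were compared between genotypes in R 4.3.3 with edgeR 4.0.16 (TMM scaling, trended dispersion, quasi-likelihood test with the legacy setting), tested on simulated data beforehand. P values were adjusted over all genes tested (Benjamini-Hochberg), with FDR under 0.1 as the threshold. Levels are TMM-normalized CPM, SE is the fold change over the square root of F, and log2 CPM used a prior count of 2. Ratios of counts within a library were compared by exact two-sided permutation with a threshold of 0.05 after adjustment over 5 ratios, since the planned *Itga7* to *Itga6* ratio could not be computed with counts of 0. Positions are from GENCODE on GRCm38 and promoter windows from RefSeq.

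Replicates were separate embryos by the labels. Alternatives were other scalings (RLE, library size), DESeq2 1.42.0, the newer edgeR setting, no filter, a replicate block, leaving out each library, and covariates for *Xist* and for choroid plexus, endothelial and mesenchymal genes. The epidermal list, its covariate and the fit of 6 libraries with Y-linked transcripts were added after the values were seen. The 10 genes and all lists were chosen with earlier results of these data known. Named from each list were all genes past the threshold, otherwise up to 2 with the smallest p, and the 3 profiles nearest to each member past it. Tissue markers, *Krt5*, *Krt14* and *Rtraf* were named after their values were seen. Without molecular identifiers, depth bounds counting error only.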

Additional observations from a re-analysis of the deposited data

Results flagged for a closer look

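In 30 groups of 5 libraries (10 genes and 5 ratios, each in 2 genotypes), the highest or lowest library was compared with its nearest neighbor by Dixon's criterion, which chance passes in about 1 of 20 groups, and 3 stood apart. *Itgb4* at 36.8 normalized CPM in wild-type embryo 4 was far above the other wild-type libraries, whose highest was 9.68 CPM, and it lay in the library with the highest sum of epidermal genes. *Itgb1* at 146 CPM in wild-type embryo 2 was below the other wild-type libraries, which lay between 159 and 163 CPM. *Itga7* at 0.348 CPM in *Lmx1a*-/- embryo 5 was above the other *Lmx1a*-/- libraries, at a level of few counts.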

How the results depend on the processing

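*Itga6* was the only member called with all libraries. The number of members called lower was 0 with library size scaling, the replicate block, the *Xist*, choroid plexus or epidermis covariate, or the 6 libraries with Y-linked transcripts, 2 with the newer edgeR setting, no filter, the endothelium or the mesenchyme covariate, 6 with DESeq2, and 0 to 3 leaving out 1 library. No member was called higher in any of these. Over all genes, 497 were called lower and 373 higher. These became 953 and 741 with DESeq2, 26 and 1 with *Xist*, 17 and 16 with choroid plexus, 147 and 63 with epidermis, 86 and 44 in the 6 libraries (where the lone wild-type sample is assumed to vary like the others), and 261 to 604 and 190 to 455 leaving out 1 library. The sign turned for *Nid2* with *Xist* (-0.18), epidermis (-0.00) and the 6 libraries (-0.19), and for *Hspg2* with choroid plexus (0.05). The cause was not tested. Of 198 values of single genes under alternatives, 167 kept direction and call, 14 gained the call, 13 lost it and 4 reversed.

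Leaving out 1 library, the ratio differences were 0.36 to 0.60 (*Nid2* to *Nid1*), -0.70 to -0.52 (*Hspg2* to *Agrn*), -1.73 to -0.98 (*Itgb4* to *Itgb1*), -0.56 to -0.17 (*Itga3* to *Itga6*) and -0.15 to -0.02 (*Dag1* to *Itgb1*). *Nid2* to *Nid1* lost its call in 4 of these 10 fits and *Hspg2* to *Agrn* in 8, and *Itgb4* to *Itgb1* gained it (adjusted p = 0.0397) without *Lmx1a*-/- embryo 3. With 1 count added all 6 ratios could be computed, and the calls were unchanged. Deviations of embryos of the same number correlated between -0.099 and 0.013 across the genotypes. The labels do not say whether such embryos shared a litter or batch, and the correlations cannot show it. With the number as a replicate block, 353 genes were called lower and 248 higher, *Nid2* to *Nid1* stayed at 0.51 (adjusted p = 0.156, exact sign-flip permutation) and *Hspg2* to *Agrn* at -0.61 (adjusted p = 0.208), in a test of 5 pairs that cannot go below 0.0625 before adjustment. Depth limits *Itga7*, with 39 counts in all.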
